A study of Mus musculus with 3 samples.

Results

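Proteasome genes were followed in a murine colon adenocarcinoma line and its sublines. Probes were taken whose RefSeq accession belongs to a mouse gene named *Psma*, *Psmb*, *Psmc*, *Psmd* or *Psme* followed by a number, without the immunoproteasome genes *Psmb8* and *Psmb9*. This rule names 41 genes, of which 40 had a named probe on the arrays (62 probes), out of 22911 named genes in all. *Psme2* alone had none. The 40 genes comprise 31 subunits of the core and regulatory particles, 3 inducible or tissue-restricted subunits, 3 assembly chaperones of the regulatory base and 3 proteasome activators. The arrays compared Colon26, a line from a female BALB/c mouse, with LuM1, its high-metastatic subline, and NM11, its low-metastatic subline. Cells of each line were cultured for 3 days without any further treatment, and 0.1 µg of total RNA from each line was labelled for a single-colour array. With 1 array for each line, no difference could be checked against replicates or tested, and precision is limited by the number of arrays.

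The proteasome is the protease that degrades proteins tagged with ubiquitin in the cytosol and nucleus. Its core particle is a barrel of stacked rings, in which alpha subunits gate the entrance and some of the beta subunits cut the substrate. Its regulatory particle has a base, whose ATPases unfold substrates and thread them into the barrel, and a lid, which removes the ubiquitin. Immune signals such as interferon-gamma are known to replace the catalytic subunits with inducible counterparts and to raise an alternative activator cap. When proteasome activity falls short, the transcription factor Nfe2l1 is known to raise the subunit genes together.

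The values are the scanner software's background-subtracted brightness, scaled so that the 75th percentile of each array is the same, in arbitrary units. The unscaled percentile was lowest in NM11 (551.5), higher in Colon26 (581.1) and highest in LuM1 (625.1), and no probe was saturated on any array. The scanner software's error was about 10% of each proteasome signal, which gives an error of 0.20 on the log2 ratio of 2 arrays, and this error covers the reading of the spots only. The 7 spike-in controls of the E1A series had log2 ratios between -0.04 and 0.05 for LuM1 over Colon26, between -0.37 and -0.27 for LuM1 over NM11 and between 0.23 and 0.41 for NM11 over Colon26. The labelled tissue was checked against markers. Of 12 genes of the intestinal epithelium, 3 were well above background in Colon26 and NM11 and 4 in LuM1. *Krt8*, *Krt20* and *Cdx2* were well above background on every array, and *Epcam* in LuM1 only. *Krt20* read 652 in Colon26, 54.6 in LuM1 and 158 in NM11, and *Cdx2* read 444, 232 and 167 in the same order. *Cdh1*, *Vil1*, *Krt18* and *Krt19* were among the genes not well above background on any array. All 8 mesenchymal genes were well above background on every array, but their signals were not alike in the lines. *Col1a2* read 59975.5 in Colon26, 49.7 in LuM1 and 85387.5 in NM11. *Col3a1* read 294 in Colon26, 1171 in LuM1 and 2658 in NM11. Of 7 leukocyte genes, 4 were well above background in Colon26 and NM11 and 5 in LuM1, and *Ptprc* and *Adgre1* were not well above background on any array. The summed signal of the leukocyte list was 6546 in Colon26, 13351 in LuM1 and 5816 in NM11, and its part in the proteasome signals was not tested. Most of the gap came from *Cd68*, which read 172 in Colon26, 5258 in LuM1 and 299.6 in NM11, and part from *Itgam*, with 5034, 6827 and 4256 in the same order. In RNA from whole cultures, fewer cells of a type and less RNA per cell cannot be told apart.

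Of the 40 genes, 38 were well above background in all 3 lines, and each of these 38 lay above the 75th percentile on every array. *Psmb10*, an inducible catalytic subunit, *Psme1*, an activator subunit, and *Psmd10*, a base chaperone, gave higher signals in both sublines than in Colon26. Among the core and regulatory subunits, the widest gaps at this scaling lay between the sublines. There *Psmc5*, *Psmd12* and *Psma4* were 1.92-fold, 1.87-fold and 1.76-fold lower in LuM1 than in NM11. Scaled to *Hprt*, the widest gap was a log2 ratio of -0.87 for NM11 over Colon26. In the authors' processed values it was 0.71 for LuM1 over Colon26. *Psmd9*, another base chaperone, gave a higher signal in NM11 than in either of the other lines. At the other end, *Psmd5*, the remaining base chaperone, gave the largest negative log2 ratio of LuM1 over Colon26 among the 38 genes.

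**Figure D1:**
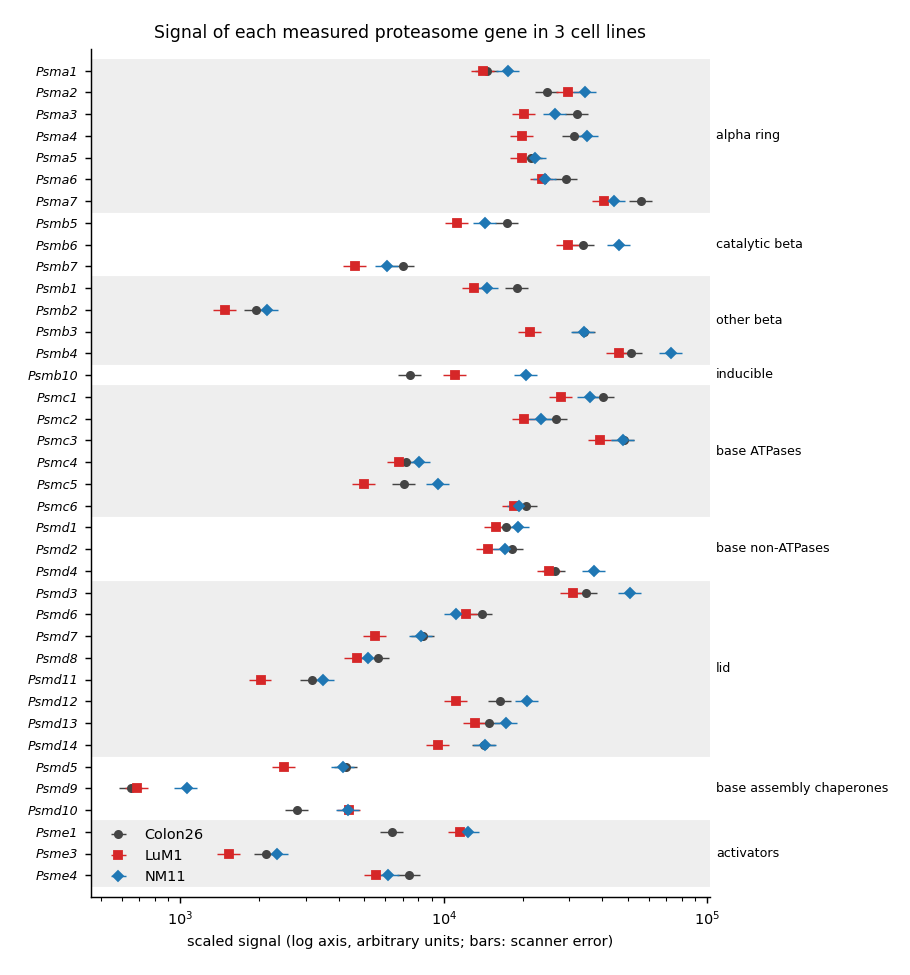
Scaled signal (x axis, log scale, arbitrary units) of the 38 measured proteasome genes in Colon26 (circles), LuM1 (squares) and NM11 (diamonds), with bars for the scanner error; signals compare between lines within a gene, not between genes. The LuM1 square is the leftmost of the 3 points for 32 of the 38 genes, against 51.8% of the named genes above the 75th percentile on every array. For the core and regulatory subunits the count fell from 29 to 12 of 31 after quantile normalization and to 7 in the authors' values. The share of other genes was not counted in either.

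The 31 subunits of the core and regulatory particles had a median log2 ratio of -0.31 for LuM1 over Colon26 (range -0.68 to 0.27), of -0.36 for LuM1 over NM11 (range -0.94 to 0.13) and of 0.01 for NM11 over Colon26 (range -0.38 to 0.56). The 3 comparisons share arrays and are not independent. All named genes measured on both arrays had medians of -0.13, -0.11 and -0.02 in the same order, and the named genes above the 75th percentile on every array had medians of -0.20, -0.18 and -0.02. The 99th percentile of the scaled signals was also lowest in LuM1, with 63541 in Colon26, 49575 in LuM1 and 61463 in NM11. Quantile normalization, which gives the 3 arrays 1 common distribution, brought the 31 subunits to medians of -0.06, -0.09 and 0.05.

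LuM1 gave the lowest of the 3 signals for 29 of the 31 core and regulatory subunits (93.5%), against 51.8% of the named genes above the 75th percentile on every array. It did so for 12 of the 31 after quantile normalization and for 7 of the 31 in the authors' processed values. The count was 20 without scaling, 17 with the E1A spike-in controls and 9 with *Hprt*. The share of other genes was not counted in any of these, so these lower counts cannot be read as particular to the subunits. The authors' values multiply each array by 1 factor, which moved the median of all genes by 0.45 for LuM1 over Colon26 and by 0.41 for LuM1 over NM11. Scaling to *Hprt* moved it by 0.10 and 0.59, and the E1A spike-in controls by -0.01 and 0.33. A scaling moves every gene alike, so that relative to all genes the 31 subunits stood at -0.18 for LuM1 over Colon26, -0.25 for LuM1 over NM11 and 0.04 for NM11 over Colon26 under each of these scalings. Relative to the named genes above the 75th percentile on every array, to which the subunits belong, they stood at -0.11, -0.18 and 0.04. After quantile normalization the differences from all genes were 0.00, -0.05 and 0.06. Without a filter on dim probes they were 0.03, -0.43 and 0.27. The distance of the subunits from other genes in LuM1 thus depended on the normalization and on the genes compared with, in both comparisons.

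**Figure D2:**
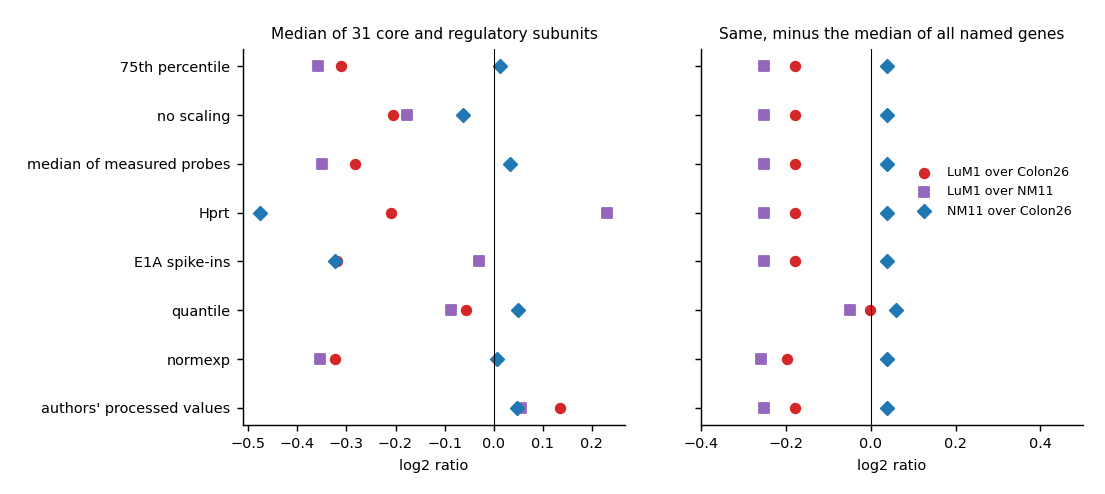
Median log2 ratio (x axis) of the 31 core and regulatory subunits under 8 ways of processing (y axis), for LuM1 over Colon26 (circles), LuM1 over NM11 (squares) and NM11 over Colon26 (diamonds); the left panel shows the median itself and the right panel the median minus that of all named genes. The medians moved across 0 between scalings, from -0.31 to 0.14 for LuM1 over Colon26 with the authors' values, while the right panel moved only with quantile normalization and slightly with normexp.

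Relative to Colon26, LuM1 signals were higher by 1.5-fold or more for 2 of the 38 genes (*Psmd10* and *Psme1*) and lower by 1.5-fold or more for 8, where 20.6% of all named genes with a ratio or bound were higher and 24.9% lower. Among named genes above the 75th percentile on every array, to which all 38 belong, 11.7% were higher and 24.9% lower. The 8 genes were *Psma3*, *Psma4*, *Psmb3*, *Psmb5*, *Psmb7*, *Psmd5*, *Psmd7* and *Psmd11*, and their share was near that of all genes. Relative to NM11, no proteasome gene was higher in LuM1 by 1.5-fold and 13 were lower by 1.5-fold or more, beside 19.1% and 20.5% of all named genes and 9.28% and 21.1% of the brighter ones. Between NM11 and Colon26, 4 genes (*Psmb10*, *Psmd9*, *Psmd10* and *Psme1*) were higher in NM11 by 1.5-fold or more and none was lower, beside 15.8% and 17.1% of all named genes and 11% and 10.7% of the brighter ones. At 2-fold, the single gene left in any comparison was *Psmb10*, which was higher in NM11 than in Colon26. Of all named genes, 8.34% were higher and 7.89% lower by 2-fold in that comparison, 13.1% and 11.8% for LuM1 over Colon26, and 11.1% and 8.5% for LuM1 over NM11. The 8 genes lower in LuM1 than in Colon26 kept a negative log2 ratio in the 11 other ways of processing, the authors' values included. However, each passed 1.5-fold in only 5 to 10 of these 11. For a gene with 1 probe, such as *Psmd7*, the looser detection rule, no filter and the other choices of probe return the same value. Passes under these settings add nothing for such a gene.

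**Figure D3:**
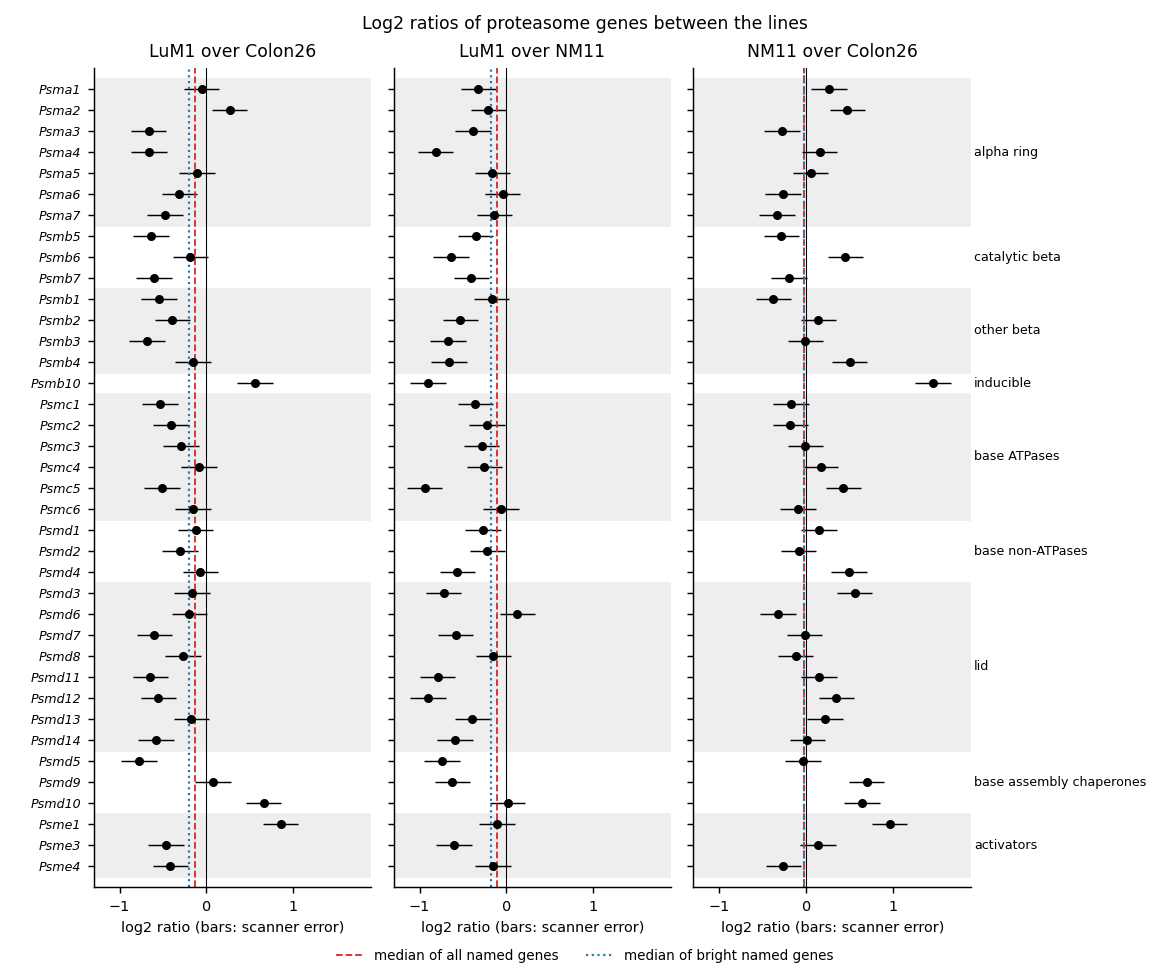
Log2 ratio (x axis) of the 38 measured proteasome genes, grouped by role, for LuM1 over Colon26, LuM1 over NM11 and NM11 over Colon26, with bars for the scanner error; dashed lines mark the median of all named genes and dotted lines the median of named genes above the 75th percentile on every array. *Psmb10*, *Psmd10* and *Psme1* stand to the right of the other genes in the left panel (0.56, 0.66 and 0.86), where the 31 core and regulatory subunits lie between -0.68 and 0.27, and together with *Psmd9* in the right panel; another scaling shifts all points of a panel together.

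The signals of single genes are given at the 75th percentile scaling. Another scaling moved every log2 ratio of a comparison by the same amount, by 0.59 at most, and could change the order of the lines where they differed by less. A gene's distance from the median of the 31 subunits is the same under every such scaling. Its range over the 11 other ways of processing thus came from quantile normalization, normexp and the choice of probe only. The 7 alpha subunits form the outer rings, which gate the barrel and dock the caps. Their log2 ratios of LuM1 over Colon26 had a median of -0.31 and an SD of 0.34 across genes. *Psma3* read 32088 in Colon26, 20252 in LuM1 and 26439 in NM11. *Psma4* read 31369.5 in Colon26, 19853 in LuM1 and 34913 in NM11. Both were 1.58-fold lower in LuM1 than in Colon26, and *Psma4* was also 1.76-fold lower in LuM1 than in NM11. *Psma4* was covered by 4 probes, all of which gave a log2 ratio of LuM1 over Colon26 between -0.74 and -0.66. *Psma2* was the exception in this ring, with 24716 in Colon26, 29758 in LuM1 and 34353 in NM11, and Colon26 gave its lowest signal. At this scaling it was the only 1 of the 31 subunits with a positive log2 ratio of LuM1 over Colon26 (0.27), whereas in the authors' values only 13 of the 31 were negative, and it lay 0.58 above their median, between 0.53 and 0.66 in the 11 other ways of processing. *Psma7* read 56263 in Colon26, 40455 in LuM1 and 44509 in NM11, so that Colon26 was the highest line by more than the scanner error. The signals of *Psma1*, *Psma5* and *Psma6* stayed within 1.25-fold of each other in every pair of lines.

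*Psmb5* carries the chymotrypsin-like activity, *Psmb6* the caspase-like activity and *Psmb7* the trypsin-like activity of the core. *Psmb5* read 17456 in Colon26, 11221 in LuM1 and 14320.4 in NM11. *Psmb7* read 6991 in Colon26, 4605 in LuM1 and 6091 in NM11. Both had their lowest signal in LuM1 and their highest in Colon26, and LuM1 was 1.56-fold lower than Colon26 for *Psmb5* and 1.52-fold lower for *Psmb7*. *Psmb6* followed another order, with 33770.0 in Colon26, 29714 in LuM1 and 46196 in NM11. Its log2 ratio of LuM1 over Colon26, -0.18, was within the scanner error, whereas NM11 lay 1.37-fold above Colon26.

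*Psmb1*, *Psmb2*, *Psmb3* and *Psmb4* complete the inner rings without cutting. *Psmb3* read 34229.8 in Colon26, 21296 in LuM1 and 33962 in NM11, so that LuM1 stood below a pair of lines that were alike within the scanner error. *Psmb4* read 51396 in Colon26, 46114 in LuM1 and 72783 in NM11, so that here NM11 stood above the other lines. *Psmb1* had its highest signal in Colon26, with 18984 against 12993 in LuM1 and 14617 in NM11. *Psmb2* ranged from 1477 in LuM1 to 2134 in NM11.

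*Psmb10* encodes the subunit that takes the place of *Psmb7* in the immunoproteasome, the form of the core known to be induced by interferon-gamma. Its signal, from 1 probe, was 7480.1 in Colon26, 11024 in LuM1 and 20592 in NM11, and the 3 lines were separated by more than the scanner error. NM11 was 2.75-fold above Colon26 and LuM1 was 1.47-fold above Colon26. Set against the median of the 31 subunits, the log2 ratio of *Psmb10* was 0.87 higher for LuM1 over Colon26. For NM11 over Colon26 it was 1.45 higher. These distances lay between 0.85 and 0.91 and between 1.38 and 1.45 in the 11 other ways of processing, of which the scalings cannot move them. Its own counterpart *Psmb7* had log2 ratios of -0.60 and -0.20, so that the inducible gene exceeded the constitutive gene by 1.16 ± 0.29 (scanner error) for LuM1 over Colon26 and by 1.66 ± 0.29 for NM11 over Colon26. The inducible subunits left out by the rule were also higher in both sublines than in Colon26. *Psmb9*, the counterpart of *Psmb6*, had log2 ratios of 2.99 for LuM1 over Colon26 and 2.30 for NM11 over Colon26, and *Psmb8*, the counterpart of *Psmb5*, had 1.35 and 1.56. For NM11 over Colon26, the excess of the inducible over the constitutive gene was 1.66, 1.84 and 1.85 for *Psmb10*, *Psmb8* and *Psmb9*, alike within the scanner error of 0.29. For LuM1 over Colon26 it was 1.16, 1.99 and 3.17 in the same order, apart by more than this error. For LuM1 over NM11 it was -0.50, 0.14 and 1.33, also apart by more than the error. *Psmb9* was higher in LuM1 than in NM11, whereas *Psmb10* was 1.87-fold lower in LuM1 than in NM11.

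**Figure D4:**
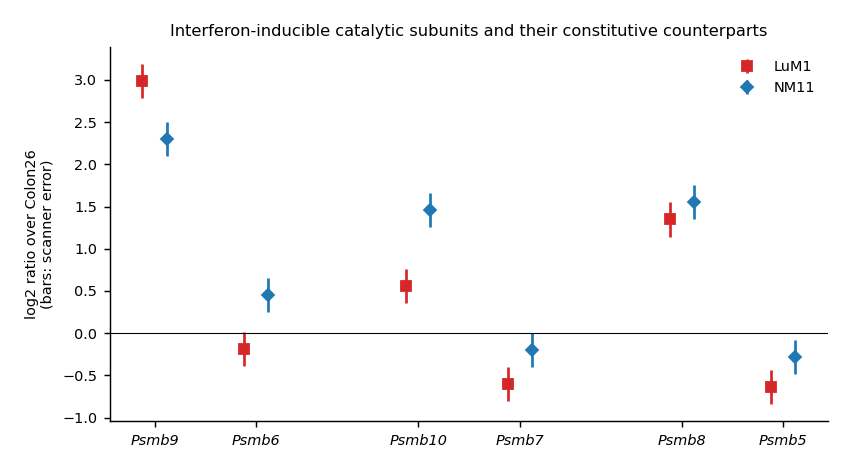
Log2 ratio over Colon26 (y axis) of LuM1 (squares) and NM11 (diamonds) for each inducible catalytic subunit beside the constitutive subunit it replaces, with bars for the scanner error. *Psmb10* lies at 0.56 in LuM1 and 1.46 in NM11, above *Psmb7* at -0.60 and -0.20, and *Psmb9* and *Psmb8* lie above *Psmb6* and *Psmb5* in both sublines.

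*Psmc1* to *Psmc6* encode the ATPases of the ring that unfolds substrates. Their log2 ratios of LuM1 over Colon26 ranged from -0.53 for *Psmc1* to -0.09 for *Psmc4*, and none of the 6 reached 1.5-fold in that comparison. *Psmc5* differed from the other ATPases between the sublines, with 7095 in Colon26, 4974 in LuM1 and 9540.0 in NM11. NM11 was 1.92-fold above LuM1, and the log2 ratio of LuM1 over NM11 lay 0.58 below the median of the 31 subunits and between 0.56 and 0.60 below it in the 11 other ways of processing. *Psmc3* and *Psmc6* read within 1.25-fold in all 3 lines. *Psmc1* read 40418 in Colon26, 27927 in LuM1 and 35783 in NM11, and *Psmc2* read 26672, 20127 and 23508 in the same order. *Psmc4* ranged from 6788 in LuM1 to 8088 in NM11. Of the non-ATPase subunits of the base, *Psmd1* and *Psmd2* are large scaffolds and *Psmd4* is a ubiquitin receptor. *Psmd4* read 26349 in Colon26, 25126 in LuM1 and 37127 in NM11, so that NM11 alone stood apart, while *Psmd1* and *Psmd2* stayed within 1.24-fold in every pair of lines.

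The 8 lid subunits had a median log2 ratio of -0.41 for LuM1 over Colon26 and -0.59 for LuM1 over NM11. *Psmd14* is the deubiquitinase of the lid and *Psmd7* its partner. *Psmd14* read 14274 in Colon26, 9558 in LuM1 and 14407 in NM11, and *Psmd7* read 8332, 5492 and 8229.5 in the same order. Both were alike in Colon26 and NM11 within the scanner error and lower in LuM1, by 1.49-fold and 1.52-fold against Colon26. *Psmd11*, which clamps the lid onto the core, read 3156 in Colon26, 2019 in LuM1 and 3496 in NM11. *Psmd12*, a scaffold of the lid, read 16356 in Colon26, 11131 in LuM1 and 20794 in NM11. For both, LuM1 was the lowest line, 1.73-fold and 1.87-fold below NM11. *Psmd3* had the pattern of *Psmd4* and *Psmb4*, with 34627 in Colon26, 30840.0 in LuM1 and 50924 in NM11. At this scaling *Psmd6* alone among the 31 subunits had its lowest signal in NM11, with 13928 in Colon26, 12151 in LuM1 and 11123 in NM11. Its log2 ratio of LuM1 over NM11, 0.13, was within the scanner error, but it lay 0.49 above the median of the 31 subunits, and between 0.42 and 0.49 above it in the 11 other ways of processing. *Psmd8* and *Psmd13* ranged from 4671 in LuM1 to 5638 in Colon26 and from 13199 in LuM1 to 17313 in NM11.

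*Psmd5*, *Psmd9* and *Psmd10* encode chaperones that hold ATPases of the base during assembly and are not part of the finished particle. Their patterns differed from each other. *Psmd10*, also known as gankyrin, an oncoprotein that binds the retinoblastoma protein, read 2775 in Colon26, 4386 in LuM1 and 4335 in NM11. LuM1 was 1.58-fold and NM11 1.56-fold above Colon26, and the sublines were alike within the scanner error. The ratio of LuM1 over Colon26 passed 1.5-fold in all 11 other ways of processing, and that of NM11 over Colon26 in 8 of them. *Psmd9* read 652 in Colon26, 687 in LuM1 and 1057 in NM11, so that Colon26 and LuM1 were alike and NM11 was 1.62-fold above Colon26. *Psmd5* read 4245 in Colon26, 2479 in LuM1 and 4143 in NM11, so that LuM1 was 1.71-fold below Colon26 and 1.67-fold below NM11. It passed 1.5-fold lower for LuM1 over Colon26 in 10 of the 11 other ways of processing, and its log2 ratio lay between 0.46 and 0.56 below the median of the 31 subunits throughout. Each of these 3 genes was measured by 1 probe, so that the looser detection rule, no filter and other choices of probe could not change its ratios.

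*Psme1* encodes a subunit of the interferon-inducible activator ring that opens the core without ATP. It read 6371 in Colon26, 11529 in LuM1 and 12401 in NM11, from 1 probe. LuM1 was 1.81-fold and NM11 1.95-fold above Colon26, and the sublines were alike within the scanner error. Against the median of the 31 subunits its log2 ratio was 1.17 higher for LuM1 over Colon26 and 0.95 higher for NM11 over Colon26. It passed 1.5-fold in all 11 other ways of processing for LuM1 and in 10 of them for NM11. Some of the 11 return the same value for a gene with 1 probe. Its partner in the ring is encoded by *Psme2*, for which no probe was named here. *Psme3* and *Psme4*, which encode nuclear activators, did not share this pattern. *Psme3* read 2113 in Colon26, 1528 in LuM1 and 2323 in NM11, and *Psme4* read 7386, 5541 and 6153 in the same order, so that LuM1 was the lowest line for both at this scaling.

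*Psma8*, an alpha subunit of the testis, and *Psmb11*, a catalytic subunit of the thymic cortical epithelium, were not well above background on any array. No ratio was given for them.

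For 16 of the 38 genes, more than 1 probe was measured. The log2 ratios of LuM1 over Colon26 from probes of the same gene spanned a median of 0.05 and at most 0.22, the latter for *Psmb2*, and for 15 of the 16 genes the span was below the scanner error. For LuM1 over NM11 the median span was 0.09 and the largest 0.20, for *Psmd13*. For NM11 over Colon26 the median span was 0.07, and the probes of 3 genes lay on both sides of 0. Probes of a gene on 1 array share their RNA and are not replicates of a line.

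**Figure D5:**
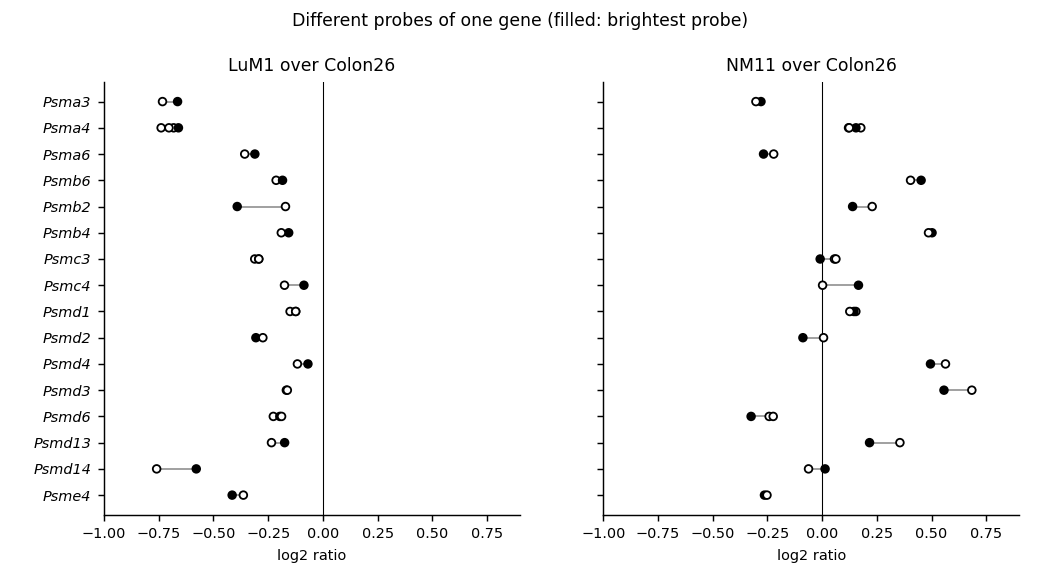
Log2 ratios (x axis) of LuM1 over Colon26 and of NM11 over Colon26 from different probes of the same gene, for the 16 genes with more than 1 measured probe; the filled point is the brightest probe, whose value stands for the gene. The probes of a gene lie close together, with all 4 probes of *Psma4* between -0.74 and -0.66 in the left panel, while the genes differ from each other by more.

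Since the subunit genes are known to be regulated together, the promoter windows of RefSeq (GRCm38.p6), each 300 bases long from 250 before the start of transcription, were searched on both strands for letters that transcription factors read. The table held 37 windows for 34 of the 41 genes, all but *Psma8*, *Psmb1*, *Psmb2*, *Psmb7*, *Psmc3*, *Psmd3* and *Psmd7*. The letters CCGGAAGT, read by ETS factors, were in 9 of the 37 windows (24.3%). They were in 3.89% of all 32851 windows and in 9.52% of those of named genes above the 75th percentile on every array. *Psmc2* was counted with more than 1 window, so that the 9 windows come from fewer genes. The match of *Psma6* lay 16 to 23 bases after the start. The letters TGACNNNGC, the core of the element read by Nfe2l1 and Nfe2l2, were in 6 windows (16.2%), against 12.4% of all windows and 14.4% of the brighter genes' windows. CCAAT, the box of NF-Y, was in 13 windows (35.1%), against 37.4% of all and 37.8% of the brighter genes' windows. The palindromic site of NRF1 was in 1 window, that of *Psma2* (2.70%), against 0.971% of all and 2.21% of the brighter genes' windows. Matches of different letters did not overlap. They are a description of the letters and show no binding. Stretches with the ETS letters are shown for subunits of the base and lid and for *Psme4*, ending at the base before the start, on the strand of the gene, with the match in capitals.

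*Psmc1* (chr12:100110142-100110201, plus strand): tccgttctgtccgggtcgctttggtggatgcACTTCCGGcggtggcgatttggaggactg
*Psmc2* (chr5:21785185-21785274, plus strand): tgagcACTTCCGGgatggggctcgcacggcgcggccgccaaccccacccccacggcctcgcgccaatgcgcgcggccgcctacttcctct
*Psmd6* (chr14:14120946-14121005, minus strand): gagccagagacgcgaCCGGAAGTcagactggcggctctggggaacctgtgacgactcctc
*Psmd12* (chr11:107479468-107479527, plus strand): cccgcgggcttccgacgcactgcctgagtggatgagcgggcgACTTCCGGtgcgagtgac
*Psme4* (chr11:30771715-30771774, plus strand): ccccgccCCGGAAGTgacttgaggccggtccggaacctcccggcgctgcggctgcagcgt

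Genes with the same letters differed between the lines. *Psmd12* had a log2 ratio of LuM1 over NM11 of -0.90 and *Psmd6* of 0.13, although both carry the ETS letters within 60 bases of the start. The core of the antioxidant response element lay in the 60 bases before the start of *Psmb5*, *Psmb6* and *Psmd9*, whose stretches are given with the match in capitals, and across the start of *Psme4*. *Nfe2l1* read 8068 in Colon26, 8454 in LuM1 and 11543 in NM11. *Psmb6* and *Psmd9* gave their highest signal in NM11, *Psmb5* and *Psme4* in Colon26. The start used for *Psmb6* lies 33 bases inside the gene as the gene table bounds it.

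*Psmb5* (chr14:54617996-54618055, minus strand): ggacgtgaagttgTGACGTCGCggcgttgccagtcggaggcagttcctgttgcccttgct
*Psmb6* (chr11:70525327-70525356, plus strand): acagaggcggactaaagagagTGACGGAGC
*Psmd9* (chr5:123228130-123228189, plus strand): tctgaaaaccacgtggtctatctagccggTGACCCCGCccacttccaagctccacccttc

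After the values were seen, 2 further sets of letters were searched, since *Psmb10* and *Psme1* are known to respond to interferon. The core of the interferon-stimulated response element, GAAA repeated after any 2 bases, was in 4 of the 37 windows (10.8%), those of *Psmb3*, *Psmd4*, *Psmd9* and *Psme1*, against 3.44% of all windows and 2.65% of the brighter genes' windows. TTCNNNGAA, the gamma-activated site, was in 1 window, that of *Psmd2* (2.70%), against 8.30% of all and 6.48% of the brighter genes' windows. The window of *Psmb10* held none of the 6 sets of letters. In *Psme1* the match lies just after the start of transcription, and the first 30 transcribed bases are shown with the match in capitals, on the plus strand.

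*Psme1* (chr14:55578494-55578523, plus strand): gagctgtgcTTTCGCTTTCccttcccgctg

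The 4 genes with these letters had log2 ratios of LuM1 over Colon26 of -0.68 for *Psmb3*, -0.07 for *Psmd4*, 0.08 for *Psmd9* and 0.86 for *Psme1*. For NM11 over Colon26 the ratios were -0.01, 0.49, 0.70 and 0.96 in the same order.

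A list of 35 further genes, of which 34 were measured, was described beside the subunits. For LuM1 over Colon26 the list had a median log2 ratio of -0.26, with 1 gene at least 1.5-fold higher and 10 lower, beside 20.6% and 24.9% of all named genes. For LuM1 over NM11 the median was -0.41, with 1 gene higher and 9 lower, beside 19.1% and 20.5% of all named genes. For NM11 over Colon26 it was 0.00, with 3 higher and 2 lower, beside 15.8% and 17.1%. The 5 chaperones that assemble the core particle had a median of -0.59 for LuM1 over Colon26, and 3 of them were at least 1.5-fold lower in LuM1. *Psmg1* read 13374 in Colon26, 7033 in LuM1 and 11111 in NM11, a log2 ratio of -0.93 for LuM1 over Colon26, and *Psmg2* and *Psmg3* had -0.66 and -0.59. *Pomp*, the maturation factor of the core, had -0.16, within the scanner error. *Usp14*, a deubiquitinase bound to the regulatory particle, had -0.82, and *Txnl1*, a thioredoxin bound to it, had -0.93. *Uchl5*, the other deubiquitinase bound to the particle, went the other way, with 3642 in Colon26, 4564 in LuM1 and 7065 in NM11. Among the shuttles that bring ubiquitinated proteins to the proteasome, *Ubqln4* had a log2 ratio of -1.03 for LuM1 over Colon26, while *Ubqln2* had 0.97. *Psmf1*, an inhibitor of the core, read 2017 in Colon26, 1308 in LuM1 and 1281 in NM11, so that both sublines stood below Colon26.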

How the data were processed

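RNA of Colon26, LuM1 and NM11 was measured on 1 single-colour mouse gene expression array per line, on the same slide. The authors deposited intensity values per spot read with Agilent Feature Extraction 11.5.1.1, after background subtraction and detrending within the array, together with flags per spot. The series values that the authors deposited are intensity values multiplied by a constant, which was 0.654 for the Colon26 array, 0.829 for the LuM1 array and 0.706 for the NM11 array.

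Spots marked as outliers (137 in Colon26, 74 in LuM1 and 99 in NM11) and control spots were dropped. The arrays were brought to the same 75th percentile, taken over all spots that are not controls. Of 56605 probes, 32994 were named through RefSeq accessions (GRCm38.p6). No probe coordinates are given, since the array design rests on an older assembly. The probe of a gene that was brightest on average (log2) stood for it, and probes not well above background gave no ratio, only a bound where the other array was above background.

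Every gene the rule selects was named, together with genes of fixed pathway and marker lists. Members and lists were chosen with earlier results of these data known. Alternatives were the unscaled signal, *Hprt*, the E1A spike-in controls or the median of measured probes as the base of the scaling, quantile normalization, normexp with an offset of 50 (on median brightness), the authors' values, a looser detection rule, no filter, other choices of probe, of background genes, of members and a 2-fold threshold. Of these, 11 give each gene a value of its own. The calculation was tested on simulated data. Python 3.11.15 with numpy 2.4.6 and pandas 2.3.3, matplotlib 3.10.9, and R 4.3.3 with limma 3.58.1 were used.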

Additional observations from a re-analysis of the deposited data

How the results depend on the processing

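No paired analysis was possible because each line had 1 array. The alternatives vary the processing of the same 3 arrays and do not replace replicates. The median log2 ratio of the 38 genes for LuM1 over Colon26 (-0.31) was -0.036 after quantile normalization, and 0.14 on taking the authors' values. For LuM1 over NM11 (-0.37) it was 0.22 with *Hprt* and -0.043 with the E1A controls, -0.093 by quantile normalization and 0.042 on taking the authors' values. For NM11 over Colon26 (0.09) it was -0.39 with *Hprt* and -0.24 with the E1A controls.

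The number of genes above the median of all genes for LuM1 over Colon26 (10) was 19 after quantile normalization, 20 of 40 without a filter on dim probes, 6 of the 31 core and regulatory subunits and 16 against genes above the 75th percentile. For LuM1 over NM11 (5) it was 18, 3, 3 and 10 in the same order.

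Relative to Colon26, higher by 1.5-fold or more in LuM1 (2 genes) were 4 after quantile normalization, 4 in the authors' values, 0 of the 31 subunits and 0 at 2-fold. Lower (8 genes) were 1 without scaling, 1 with *Hprt*, 1 after quantile normalization, 0 in the authors' values and 0 at 2-fold. Against NM11, higher (0 genes) were 2 with *Hprt*, and lower (13 genes) were 5 without scaling, 0 with *Hprt*, 1 with the E1A controls, 4 after quantile normalization, 0 in the authors' values and 0 at 2-fold. In NM11 against Colon26, higher (4 genes) were 1 with *Hprt*, 2 with the E1A controls, 0 of the 31 subunits and 1 at 2-fold, and lower (0 genes) were 11 with *Hprt*, 7 with the E1A controls, 1 under the looser detection rule and 1 without a filter. The share of all named genes past 1.5-fold was counted in the main processing only. These counts under other settings thus cannot be read as particular to proteasome genes. Scaling to *Hprt*, for example, moved the median of all genes by -0.49 for NM11 over Colon26. The causes were not tested, except that a scaling moves all genes alike. Over all genes and settings, 1889 single values moved by less than the scanner error and 553 by more, and no value past 1.5-fold changed sign. The 1889 include values that a setting could not move, such as those of genes with 1 probe under other choices of probe.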
